A study of Homo sapiens with 15 samples.

Results

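Collagen genes were examined by RNA-seq in the human fibrosarcoma line HT1080 under inhibitor treatment. The rule took every gene whose symbol is COL, a number, A and a number with nothing after it, so antisense and pseudogene symbols were left out. It found 44 of the 60675 genes in the table, which hold every collagen class of the standard grouping. Of these, 40 had more than 3 counts in at least 1 library, and 28 passed the filter on low counts and were tested. The other 16 could not be tested and are described by their counts.

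The data cover 5 groups with 3 replicates each, and all cells were treated with an inhibitor. 6CD2m cells carry the missense edit H611A in the second catalytic domain of KDAC6 (HDAC6), made in the endogenous gene and inactivating that domain. They received 1 μm Tubastatin A, an inhibitor reported as selective for KDAC6, for 2 days. 6CD1m cells carry the edit H216A in the first catalytic domain of the same enzyme and were given the same dose for 2 days. 8CDm cells carry H143A in KDAC8 (HDAC8), which leaves that enzyme catalytically inactive. They received 5 μm PCI-34051, an inhibitor reported as selective for KDAC8, for 2 days. The study concludes that neither inhibitor is selective in cells. WT cells were treated with 1 μm Tubastatin A or with 5 μm PCI-34051 for 14 days. An edited line therefore differs from treated WT cells in both genotype and length of treatment, and these cannot be told apart. The edited lines were made with CRISPR/Cas9, each is 1 line, and passage after editing also separates them from WT cells. Untreated cells are not analysed here. Below, the names 6CD1m, 6CD2m and 8CDm stand for the treated cells.

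Collagens are secreted or membrane-bound proteins of the extracellular matrix whose α chains wind around each other into a rope-like helix. Fibrillar collagens form the load-bearing fibrils of connective tissue, collagen IV forms the sheet-like network of basement membranes, and collagen VI forms beaded filaments that link cells to the matrix around them. FACITs coat fibrils, transmembrane collagens sit in the plasma membrane, and short-chain collagens build hexagonal networks. HT1080 cells are known for making basement membrane collagen IV.

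Several collagen chains that share a molecule are encoded by neighbouring genes, and the sequences at their starts are shown because the partners are compared below. COL4A1 and COL4A2 run in opposite directions from a stretch of 126 bases between their RefSeq starts on chromosome 13, and COL4A6 and COL4A5 do the same on the X chromosome with 379 bases between the starts used here. COL6A2 and COL6A3 encode chains of collagen VI that were called in opposite directions between 6CD2m and each of the other edited lines. Each sequence is RefSeq's (GRCh38.p14), written 5′ to 3′. For the single genes it is the 250 bases before the start, on the gene's own strand, and the COL4A1-COL4A2 stretch is on the forward strand. Capitals mark GGGCGG (the GC box), CCAAT and TATAAA on either strand.
COL4A1-COL4A2, chr13:110307158-110307283: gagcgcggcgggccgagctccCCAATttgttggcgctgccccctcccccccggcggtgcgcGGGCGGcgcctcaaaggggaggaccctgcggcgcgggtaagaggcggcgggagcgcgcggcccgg
COL4A6, chrX:108439459-108439708, reverse strand: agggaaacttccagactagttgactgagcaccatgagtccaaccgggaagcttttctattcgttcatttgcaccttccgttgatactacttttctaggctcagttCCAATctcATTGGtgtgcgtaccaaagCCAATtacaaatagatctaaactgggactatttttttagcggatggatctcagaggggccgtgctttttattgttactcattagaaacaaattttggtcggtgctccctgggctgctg
COL4A5, chrX:108439588-108439837, forward strand: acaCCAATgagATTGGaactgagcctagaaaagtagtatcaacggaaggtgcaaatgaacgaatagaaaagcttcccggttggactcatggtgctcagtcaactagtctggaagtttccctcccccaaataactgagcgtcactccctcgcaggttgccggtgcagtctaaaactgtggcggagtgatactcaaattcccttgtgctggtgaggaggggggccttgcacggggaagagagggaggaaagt
COL6A2, chr21:46097862-46098111, forward strand: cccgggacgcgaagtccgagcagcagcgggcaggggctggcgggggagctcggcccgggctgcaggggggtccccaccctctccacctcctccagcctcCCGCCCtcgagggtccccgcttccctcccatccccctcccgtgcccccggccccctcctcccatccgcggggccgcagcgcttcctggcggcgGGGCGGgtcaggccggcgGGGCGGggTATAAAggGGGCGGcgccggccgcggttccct
COL6A3, chr2:237414165-237414414, reverse strand: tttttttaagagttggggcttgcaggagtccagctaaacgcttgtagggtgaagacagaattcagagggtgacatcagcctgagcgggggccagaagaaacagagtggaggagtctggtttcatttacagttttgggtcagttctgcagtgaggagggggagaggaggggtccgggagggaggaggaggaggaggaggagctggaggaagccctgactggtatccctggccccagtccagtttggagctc

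The COL4A1-COL4A2 stretch was 80.2% G and C and held 1 GC box and 1 CCAAT. The COL4A6 and COL4A5 windows share 121 bases and, read from opposite strands, the same pair of CCAAT letters, and COL4A6 has 1 more. COL6A2 held 4 GC boxes and 1 TATAAA, whereas none of these letters was found before COL6A3, the collagen gene with the highest level. Of 35116 upstream windows of 250 bases in the RefSeq table, 42.6% hold GGGCGG, 32% CCAAT and 10.7% TATAAA. Of the 44 collagen genes, 32 have an entry there, with 44 windows in all. Of these genes 21 hold GGGCGG, 11 CCAAT and 7 TATAAA in at least 1 window. These counts are per gene, and some genes have several windows, so they do not compare directly with the shares per window. A match of letters is a description and not a binding site. COL6A1, COL8A1 and COL22A1 have no entry in the table.

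Library totals ran from 10932455 to 19983710 counts (median 17551887), and replicates correlated at 0.962 to 0.988 (Pearson's r of log2 CPM across genes). No pair of replicates differed by as little as sampling noise. Levels are given as CPM, the depth-scaled count that edgeR gives on the TMM library size, and as CPM per kb of exon where genes are compared with each other. The edited genes carry missense changes, so their RNA level does not check the labels. HDAC6 stood at 12.4 to 14.2 CPM in 6CD1m and 17.9 to 34.2 CPM in all other libraries, and HDAC8 at 12.6 to 19.8 CPM throughout. The 6 mesenchymal markers (VIM, FN1, CD44, S100A4, CALD1 and CDH2) summed to 4396 to 4973 CPM in 6CD2m, 7722 to 8236 CPM in 8CDm and 5158 to 8600 CPM in the other groups, although S100A4 was at 0.837 CPM or less. The 6 epithelial markers summed to 4.48 to 17.2 CPM, and CLDN4 alone was at 3.76 to 13.1 CPM. GRHL2 reached 2.27 CPM, CLDN3 1.77 CPM and ESRP1 1.37 CPM, and EPCAM and CDH1 were at 0.118 CPM or less. The 6 leukocyte and endothelial markers summed to 2.85 to 3.49 CPM in 6CD2m and 8CDm and 0.427 to 1.49 CPM elsewhere. FN1, which encodes the matrix protein fibronectin, was at 393 to 486 CPM in 6CD2m, 2951 to 3081 CPM in 8CDm and 840.0 to 1988 CPM in the other groups. PTPRC, the leukocyte marker, was at 0.0533 CPM in 1 library and at 0 in the others, and the endothelial CDH5 was at 1.39 to 2.85 CPM in 6CD2m and 8CDm. In bulk RNA, fewer cells of a type and less RNA per cell cannot be told apart.

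The collagen transcripts of these cells were mostly those of collagen VI, XIII and IV. COL6A3, which encodes the largest chain of collagen VI, had the highest level per length at 246.6 CPM per kb over all libraries. It was followed by the other main collagen VI chains COL6A2 (53.5 CPM per kb) and COL6A1 (36.6), the transmembrane collagen COL13A1 (26.0) and the basement membrane chain COL4A2 (24.2). COL4A1, COL5A1, COL27A1, COL12A1 and COL18A1 came next, between 16.1 and 9.14 CPM per kb. The chains of the classic fibrillar collagens were low, with COL1A1 at 0.535 CPM per kb, COL1A2 at 0.0396 CPM per kb and COL3A1 with at most 3 counts in any library. Not scaled by length, all collagen genes together summed to 4567 to 5122 CPM in 6CD2m, 6087 to 6304 CPM in 6CD1m, 6501 to 7099 CPM in 8CDm, 7232 to 7524 CPM in Tubastatin A-treated WT cells and 8245 to 9264 CPM in PCI-34051-treated WT cells. These ranges did not overlap between any of the groups. COL6A3 alone made up 54.8% to 56.3% of that sum in 6CD2m and 63.3% to 79.4% in the other libraries, so the sum largely follows this gene.

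**Figure D1:**
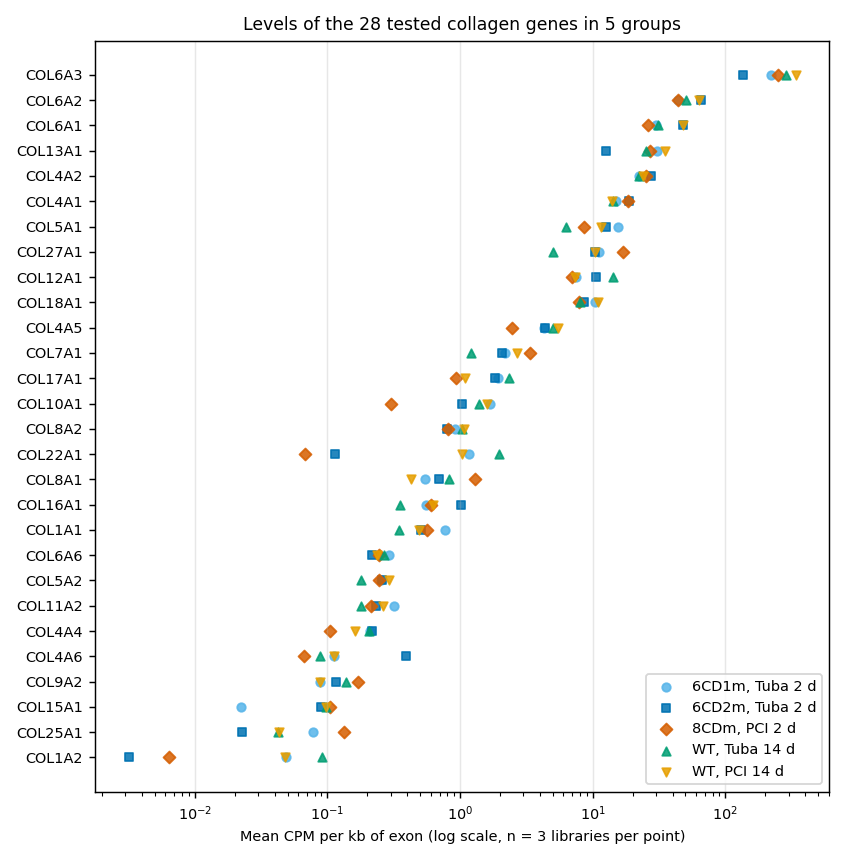
Mean level of each of the 28 tested collagen genes in the 5 groups, in CPM per kb of exon on a log axis, with 1 point for each group of 3 libraries. COL6A3 leads in every group, and the 6CD2m and 8CDm points for COL22A1 and COL1A2 lie far to the left of the others.

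The quasi-likelihood test of edgeR was applied to 19535 genes, and a gene was called at a Benjamini-Hochberg adjusted p below 0.001, the threshold the study used. All adjusted p-values below are from this test unless another is named. Between WT cells on Tubastatin A and on PCI-34051, which differ in the inhibitor and its dose, 0 of 28 collagen genes were called, against 0.415% of all genes tested. At an unadjusted p under 0.05 there were 13 of the 28, beside 5831 of all 19535 genes. DESeq2 called 3, namely COL17A1, COL12A1 and COL6A1, and its share over all genes is not given here. Between 6CD1m and Tubastatin A-treated WT cells, 0 of 28 were called, against 0.793% of all genes. At an unadjusted p under 0.05 there were 10 of the 28, beside 6226 of all 19535 genes, and DESeq2 called only COL12A1.

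More collagen genes were called where 6CD2m or 8CDm took part, as were more of all genes tested. In 6CD2m against Tubastatin A-treated WT cells 5 of 28 (17.9%) were called, against 11.7% of all genes. COL6A1 and COL4A6 were higher (all genes, 4.57%), and COL6A3, COL22A1 and COL13A1 were lower (all genes, 7.16%). In 8CDm against PCI-34051-treated WT cells 5 of 28 (17.9%) were called, against 10.8% of all genes. Here COL8A1 was higher (all genes, 4.62%), whereas COL10A1, COL22A1, COL4A5 and COL6A1 were lower (all genes, 6.16%). Between the 2 KDAC6 lines, where inhibitor, dose and time are the same, 6 of 28 (21.4%) were called, against 13.1% of all genes. Relative to 6CD2m, 6CD1m had more COL22A1, COL13A1 and COL6A3 (all genes, 6.48%) and less COL6A1, COL6A2 and COL4A6 (all genes, 6.6%). When only the 6 libraries of these lines were fitted, 1 of these 6 calls was kept, that of COL22A1. Between 6CD2m and 8CDm, which differ in line and inhibitor together, 8 of 28 (28.6%) were called, against 9.89% of all genes. Of these, COL10A1, COL6A1, COL6A2, COL4A5, COL4A6 and COL17A1 were higher in 6CD2m (all genes, 5.57%), and COL6A3 and COL13A1 were lower (all genes, 4.32%). The median log2 fold change of the collagen genes was between -0.28 and 0.10 over these 4 comparisons, and that of all genes between -0.04 and 0.05. The comparisons of either KDAC6 line with WT cells share the Tubastatin A-treated WT libraries, and 6CD2m libraries enter 3 of these 4 comparisons, so the counts are not independent. Log2 fold changes also followed GC content across 13946 protein-coding genes, to differing degrees. Spearman's rho was -0.493 between the WT groups and, against WT cells, 0.383 in 6CD1m, -0.1 in 6CD2m and -0.454 in 8CDm. It was 0.329 between 6CD1m and 6CD2m and 0.034 between 6CD2m and 8CDm.

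**Figure D2:**
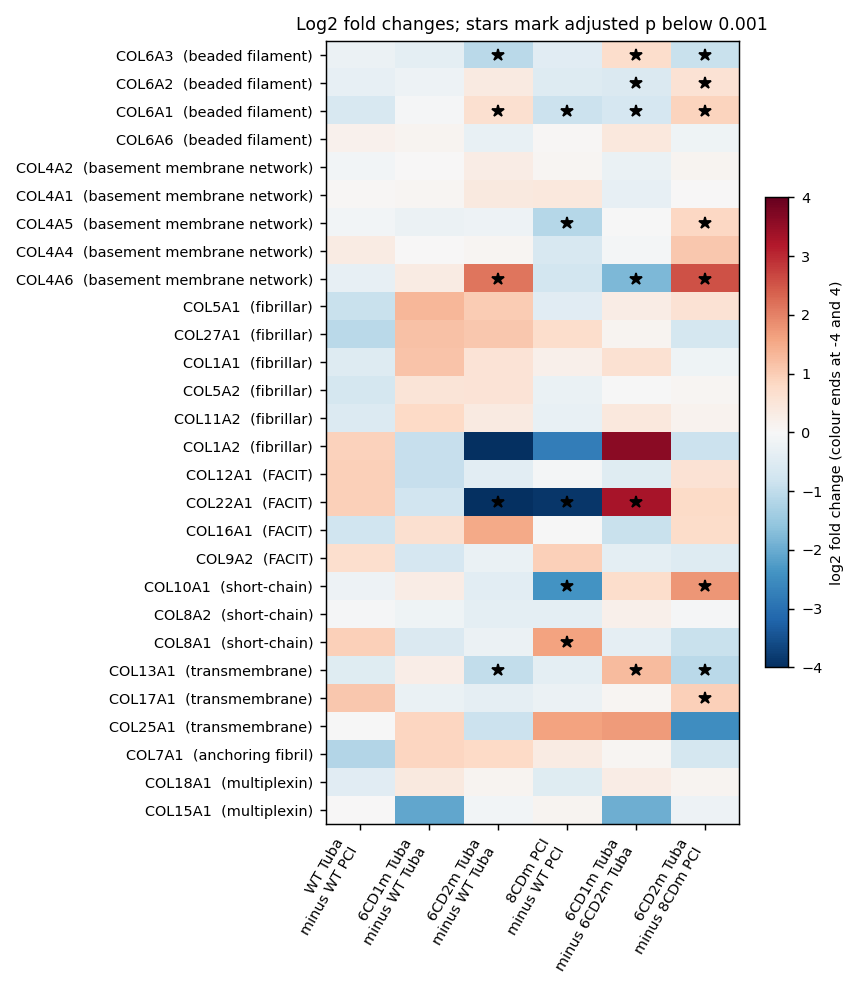
Log2 fold changes of the 28 tested collagen genes in 6 comparisons, ordered by class and level, with red for higher and blue for lower in the group named first and the colour ending at -4 and 4. Stars mark an adjusted p below 0.001, and the starred genes are in the beaded filament, basement membrane, FACIT, short-chain and transmembrane classes.

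The balance of the collagen VI transcripts differed in 6CD2m. COL6A3 stood at 5890, 5493 and 5526 CPM in Tubastatin A-treated WT libraries and at 2503, 2883 and 2611 CPM in 6CD2m. All 6CD2m libraries were below every library of the other 4 groups, of which the lowest was 3853 CPM in 6CD1m. The log2 fold change was -1.08 ± 0.11 (SE) with an adjusted p of 1.9e-06, and the call was kept in every other fit, also with each library left out. In PCI-34051-treated WT cells COL6A3 was at 7358, 6017 and 6698 CPM. Relative to WT cells on the same inhibitor it was also lower, without overlap, in 8CDm (-0.445 ± 0.105, adjusted p = 0.0043) and 6CD1m (-0.39 ± 0.105, adjusted p = 0.034). Neither passed the threshold. DESeq2 called the first (adjusted p = 6.8e-05), and with GC offsets it was -0.255 (adjusted p = 0.3). Against 8CDm, at 4686, 4914 and 5147 CPM, COL6A3 was lower in 6CD2m by a log2 fold change of -0.88 ± 0.11 (adjusted p = 1.5e-05). In 6CD1m, at 3853, 4500 and 4554 CPM, it was higher than in 6CD2m by 0.69 ± 0.11 (adjusted p = 0.00014). That last call was lost with GC offsets, a correction for how each library's counts follow GC content (adjusted p = 0.017), and without replicate 2 or 3 of 6CD1m or replicate 1 or 3 of 6CD2m (adjusted p of 0.0016 to 0.0028).

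COL6A1, the partner chain on chromosome 21, followed another pattern. It was at 153, 155 and 189 CPM in Tubastatin A-treated WT cells, and at 246, 271 and 253 CPM in 6CD2m. In PCI-34051-treated WT cells it was at 242, 272 and 255 CPM, a level like that of 6CD2m, and in 8CDm at 129, 140.2 and 150.2 CPM. In 6CD1m it was at 179.7, 161 and 139.9 CPM, which overlaps both 8CDm and Tubastatin A-treated WT cells. The gene was higher in 6CD2m than in WT cells on the same inhibitor by 0.63 ± 0.11 on the log2 scale (adjusted p = 0.00042). This call was lost with GC offsets (adjusted p = 0.0011) and without any 1 of the libraries compared except replicate 3 of the WT cells (adjusted p of 0.0011 to 0.003). In 8CDm it fell by 0.87 ± 0.11 relative to PCI-34051-treated WT cells (adjusted p = 3.0e-05), and this was lost with GC offsets, at -0.50 (adjusted p = 0.0062). Against 8CDm it was higher in 6CD2m by 0.88 ± 0.11 (adjusted p = 2.5e-05), a call kept in every other fit. Against 6CD2m it was lower in 6CD1m by a log2 fold change of -0.68 ± 0.11 (adjusted p = 0.00023), a call lost without replicate 2 or 3 of 6CD2m (adjusted p of 0.0017 and 0.0011).

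COL6A2, next to COL6A1 on chromosome 21, was likewise highest in 6CD2m and PCI-34051-treated WT cells, with smaller differences. Its levels were 268, 257 and 293 CPM in Tubastatin A-treated WT cells, 340.3, 381 and 339 CPM in 6CD2m, and 256, 243 and 209 CPM in 6CD1m. They were 319, 362 and 341 CPM in PCI-34051-treated WT cells, and 217, 238 and 257 CPM in 8CDm. Relative to 6CD2m it was lower in 6CD1m by -0.58 ± 0.10 on the log2 scale (adjusted p = 0.00041), and relative to 8CDm it was higher in 6CD2m by 0.57 ± 0.10 (adjusted p = 0.00052). The first call was lost with upper-quartile scaling (adjusted p = 0.0013) and without replicate 2 of 6CD1m or replicate 2 or 3 of 6CD2m (adjusted p of 0.001 to 0.0031). The second was lost without any 1 of the 6 libraries (adjusted p of 0.0012 to 0.0043) and with GC offsets (adjusted p = 0.022). COL6A2 has 66.4% G and C against 53.2% in COL6A3. The difference between 8CDm and PCI-34051-treated WT cells was -0.52 ± 0.10 and missed the threshold (adjusted p = 0.0011). It passed with DESeq2 (adjusted p = 1.5e-05), and with GC offsets it was -0.10 (adjusted p = 0.66). That between 6CD2m and Tubastatin A-treated WT cells was 0.37 ± 0.10 and did not pass (adjusted p = 0.011). It passed with DESeq2 (adjusted p = 0.00071) and not with GC offsets (adjusted p = 0.086).

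Within each library, the level of COL6A3 per kb was divided by the mean of COL6A1 and COL6A2 per kb. The ratio was 2.33, 2.42 and 2.42 in 6CD2m. It was 4.84, 6.09 and 7.14 in 6CD1m, 7.41, 7.12 and 6.92 in 8CDm, 7.64, 7.29 and 6.28 in Tubastatin A-treated WT cells and 7.18, 5.20 and 6.15 in PCI-34051-treated WT cells. The 6CD2m libraries lay below all others without overlap, and the remaining groups overlapped each other. No test was run on the ratio. COL6A3 is on chromosome 2, where 914 protein-coding genes had a median log2 fold change of -0.219 in 6CD2m against Tubastatin A-treated WT cells. On chromosome 21, with COL6A1 and COL6A2, the median of 135 genes was 0.176. In 6CD1m against 6CD2m these medians were 0.059 and -0.274. How far the chains follow their chromosomes was not tested. With 3 libraries in a group, an exact two-sided permutation test cannot go below 0.1. COL6A6, a further collagen VI chain, was at 1.75 to 3.28 CPM in all libraries and was called in no comparison.

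**Figure D3:**
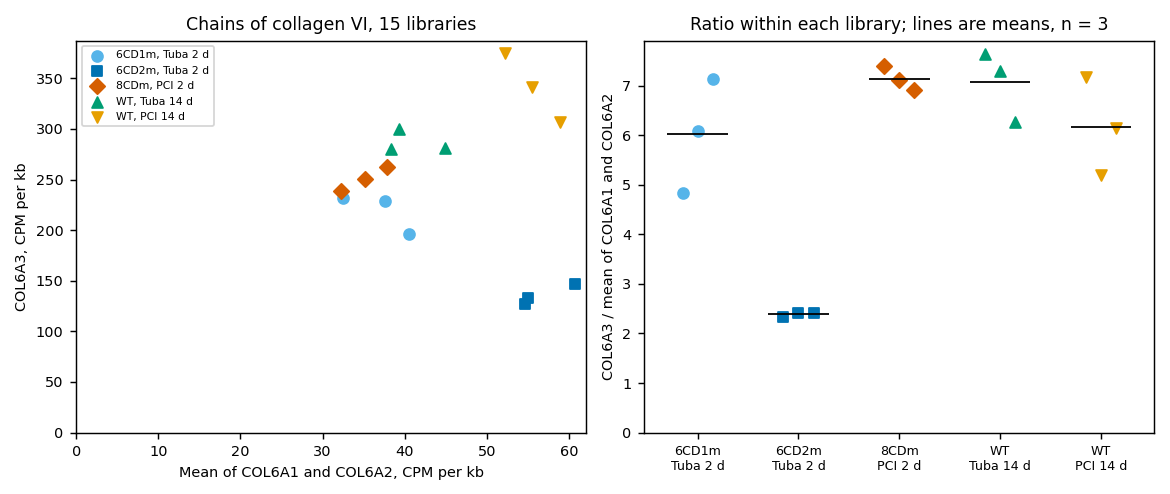
Left, COL6A3 against the mean of COL6A1 and COL6A2 in each of 15 libraries, in CPM per kb on linear axes from 0; right, their ratio within each library with group means (lines, n = 3). The 6CD2m libraries have a ratio of 2.33 to 2.42, and all others lie between 4.84 and 7.64.

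Collagen IV genes behaved as pairs to different degrees. COL4A1 and COL4A2, which encode the chains of the collagen IV found in nearly all basement membranes, were called in no comparison. COL4A1 was at 202, 212 and 219 CPM in Tubastatin A-treated WT cells, 224, 205 and 187 CPM in PCI-34051-treated WT cells and 228, 215 and 221 CPM in 6CD1m. It was at 261, 307 and 268 CPM in 6CD2m and 260.1, 282 and 278 CPM in 8CDm. The 6CD2m and 8CDm libraries were thus above all others, by 0.40 ± 0.09 and 0.42 ± 0.09 on the log2 scale relative to WT cells on the same inhibitor, which missed the threshold (adjusted p = 0.0031 and 0.0025) and passed it with DESeq2 (adjusted p = 1.9e-05 and 4.5e-05). COL4A2 was at 389, 429.6 and 465 CPM in Tubastatin A-treated WT cells, 471, 459 and 465 CPM in PCI-34051-treated WT cells and 480.5, 423 and 397 CPM in 6CD1m. It was at 504, 576 and 498 CPM in 6CD2m, above those 3 groups, and at 446, 503.5 and 509 CPM in 8CDm, which overlapped every other group. The ratio of COL4A1 to COL4A2 per kb stayed between 0.526 and 0.764 over all libraries. In GENCODE 29 the gene models of this pair overlap on opposite strands, antisense genes also lie in COL4A2, and no source used here states whether counting used the strand, so some reads could have been assigned to either.

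COL4A5 and COL4A6, the pair on the X chromosome whose upstream windows overlap above, were called in different comparisons with WT cells, COL4A5 in 8CDm and COL4A6 in 6CD2m. No test compared the pair. COL4A5 was lowest in 8CDm, with 29.2, 27.4 and 30.4 CPM against 58.3, 63.7 and 71.7 CPM in PCI-34051-treated WT cells. In Tubastatin A-treated WT cells it was at 52.5, 63.0 and 62.3 CPM, in 6CD2m at 52.6, 52.1 and 49.6 CPM and in 6CD1m at 63.1, 43.5 and 45.2 CPM. No library of another group reached down to the 8CDm values. Relative to PCI-34051-treated WT cells COL4A5 fell by 1.15 ± 0.13 on the log2 scale in 8CDm (adjusted p = 1.3e-05), a call kept in every other fit. Relative to 8CDm it was higher in 6CD2m by 0.82 ± 0.13 (adjusted p = 0.00025), a call lost without any 1 of the 6 libraries except replicate 3 of 6CD2m (adjusted p of 0.0012 to 0.0023).

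COL4A6, low in all groups, was highest in 6CD2m. It had 51, 90 and 60 counts there (3.02, 4.56 and 3.34 CPM) and 8 to 21 counts in every other library. The levels were 0.719, 0.648 and 1.098 CPM in Tubastatin A-treated WT cells, 1.09, 1.19 and 0.837 CPM in 6CD1m, 0.456, 0.650 and 0.752 CPM in 8CDm and 0.587, 1.20 and 1.35 CPM in PCI-34051-treated WT cells. The 6CD2m libraries did not overlap any other group, and the other groups overlapped each other except for 6CD1m and 8CDm. The log2 fold change of 6CD2m was 2.14 ± 0.35 against Tubastatin A-treated WT cells (adjusted p = 0.00021), lost without replicate 2 of 6CD2m or replicate 1 or 2 of the WT cells (adjusted p of 0.0013 to 0.0017). Against 8CDm it was 2.54 ± 0.35 (adjusted p = 6.1e-05), which was kept in every other fit. In 6CD1m relative to 6CD2m it was -1.80 ± 0.34 (adjusted p = 0.0008), a call lost with upper-quartile scaling (adjusted p = 0.0013) and without any 1 of the 6 libraries (adjusted p of 0.0015 to 0.0057). COL4A5 itself did not pass the test between 6CD2m and Tubastatin A-treated WT cells (-0.21 ± 0.13, adjusted p = 0.26). Of the remaining pair, COL4A4 was at 0.805 to 2.61 CPM and called in no comparison, and COL4A3 had at most 11 counts in a library and was not tested.

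Of the short-chain collagens, COL8A1 and COL10A1 moved in opposite directions in 8CDm. COL8A1, a component of the sheet beneath vascular and corneal endothelium, was at 11.7, 12.5 and 12.2 CPM in 8CDm and at 5.44, 2.84 and 3.67 CPM in PCI-34051-treated WT cells. Every other library was at 8.79 CPM or less, with 8.79, 6.16 and 8.26 CPM in Tubastatin A-treated WT cells, 4.72, 4.07 and 6.62 CPM in 6CD1m and 6.34, 7.90 and 5.34 CPM in 6CD2m. The log2 fold change of 8CDm against WT cells was 1.60 ± 0.24 (adjusted p = 0.00014). The call was lost without replicate 2 or 3 of the WT cells (adjusted p of 0.001 and 0.0015) and when only the 6 libraries were fitted (adjusted p = 0.0012). COL8A2, which encodes the other collagen VIII chain, was at 2.67 to 5.81 CPM and was called in no comparison. It stood at 4.27, 3.36 and 3.71 CPM in 8CDm and 4.53, 5.06 and 5.41 CPM in PCI-34051-treated WT cells, a difference of -0.40 ± 0.25 (adjusted p = 0.22).

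COL10A1, known from the hypertrophic cartilage of growth plates, was at 1.03, 1.35 and 1.07 CPM in 8CDm and at 5.97, 6.89 and 5.41 CPM in PCI-34051-treated WT cells. It stood at 4.14, 3.24 and 4.51 CPM in 6CD2m, 7.07, 5.90 and 6.41 CPM in 6CD1m and 4.31, 6.35 and 5.14 CPM in Tubastatin A-treated WT cells. The 8CDm libraries were below all others. COL10A1 fell by 2.395 ± 0.22 on the log2 scale in 8CDm relative to WT cells (adjusted p = 1.2e-06), and was higher in 6CD2m than in 8CDm by 1.77 ± 0.22 (adjusted p = 2.3e-05). Both calls were kept in every other fit. The gene is on chromosome 6, where the median log2 fold change of 721 genes in 8CDm against WT cells was -0.34, and in 6CD2m against 8CDm 0.43.

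**Figure D4:**
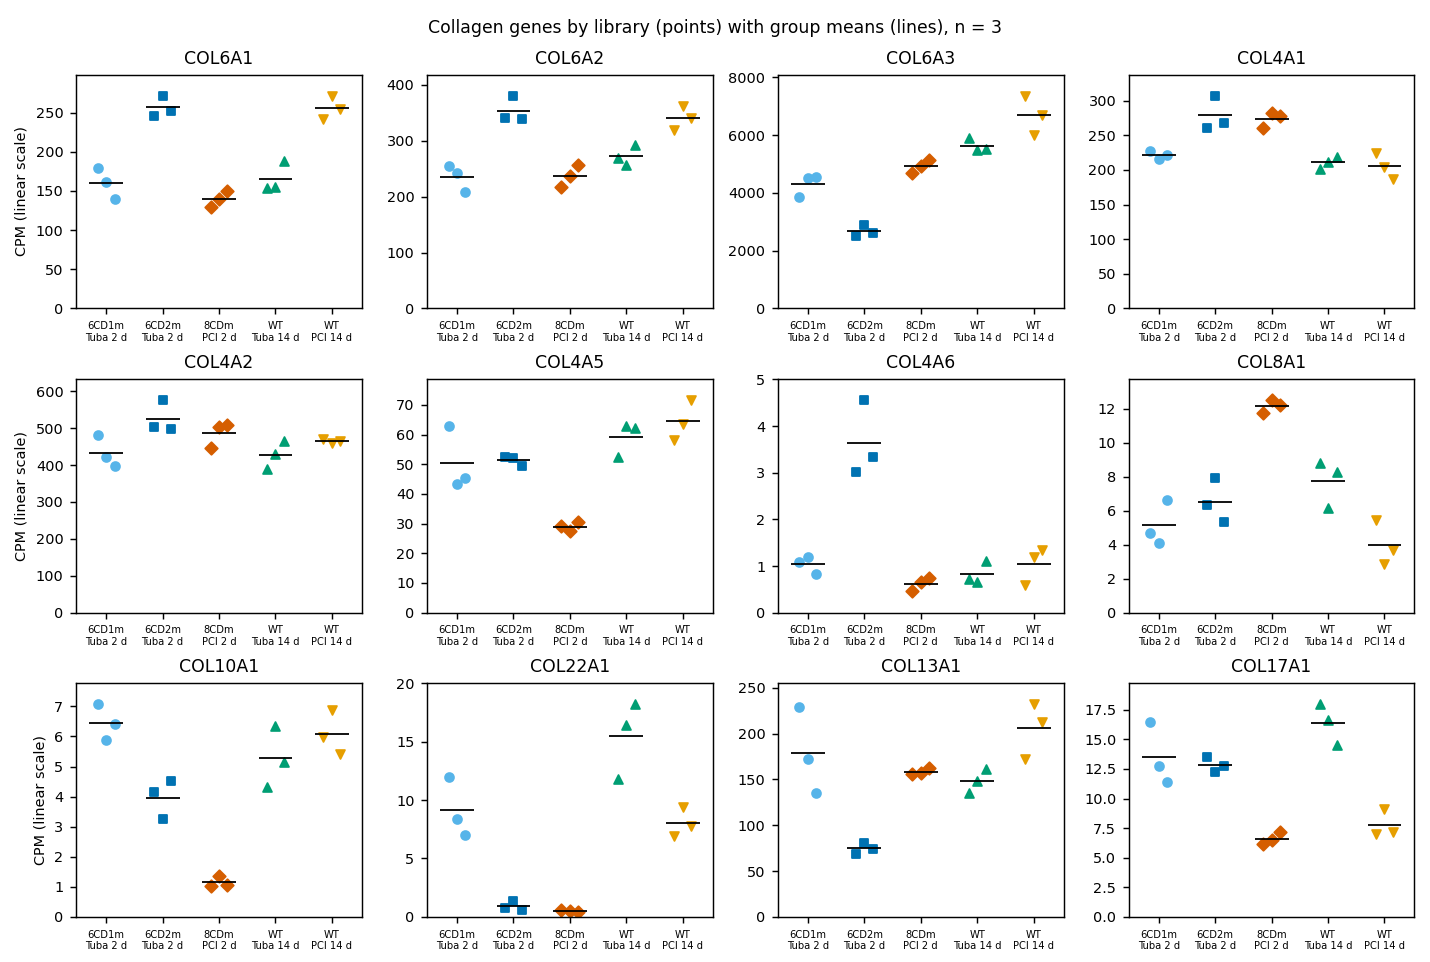
CPM of 12 collagen genes in each of the 15 libraries (points) with the mean of each group (lines, n = 3), on linear axes that start at 0 and differ between panels. COL6A3 and COL13A1 are lowest and COL4A6 is highest in 6CD2m, COL4A5 and COL10A1 are lowest and COL8A1 is highest in 8CDm, and COL22A1 is low in both.

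Among the FACITs, COL22A1 showed the largest difference of any collagen gene called. This collagen is known from tissue junctions such as that between muscle and tendon. It had 213, 253 and 315 counts (11.8, 16.4 and 18.2 CPM) in Tubastatin A-treated WT cells and 13, 26 and 11 counts (0.770, 1.32 and 0.612 CPM) in 6CD2m. In PCI-34051-treated WT cells it was at 6.93, 9.42 and 7.79 CPM, and in 8CDm at 0.627, 0.542 and 0.430 CPM, from 8 to 11 counts. In 6CD1m it was at 11.95, 8.35 and 7.04 CPM. The 6CD2m and 8CDm libraries were thus at 1.32 CPM or less, and those of the other 3 groups at 6.93 CPM or more. The log2 fold changes were -4.08 ± 0.29 in 6CD2m (adjusted p = 8.1e-08) and -3.90 ± 0.32 in 8CDm (adjusted p = 3.6e-07), each against WT cells on the same inhibitor, and 3.31 ± 0.30 in 6CD1m relative to 6CD2m (adjusted p = 8.6e-07). These calls were kept in every other fit. Between 6CD2m and 8CDm the difference was 0.77 ± 0.39 and did not pass (adjusted p = 0.17).

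COL12A1, a FACIT found along tension-bearing fibrils, was the best expressed of the class and was called in no comparison. Its levels were 217, 155 and 158 CPM in Tubastatin A-treated WT cells, and 119, 74.3 and 80.4 CPM in PCI-34051-treated WT cells. They were 71.4 to 107 CPM in 6CD1m, 112, 146 and 137 CPM in 6CD2m, and 84.0, 88.1 and 89.9 CPM in 8CDm. The Tubastatin A-treated WT libraries were above all others. The differences from PCI-34051-treated WT cells (0.95 ± 0.19, adjusted p = 0.0072) and of 6CD1m from WT cells (-0.93 ± 0.19, adjusted p = 0.0089) passed with DESeq2 alone (adjusted p = 8.2e-05 and 0.0002). COL16A1 was at 2.58 to 11.4 CPM, and its difference in 6CD2m from WT cells was 1.51 ± 0.34 (adjusted p = 0.003). That difference passed with GC offsets (adjusted p = 0.00027) and with DESeq2 (adjusted p = 6.7e-05). COL9A2, a chain of cartilage collagen IX, stayed at 0.967 CPM or less. COL9A1, COL9A3, COL14A1, COL19A1, COL20A1 and COL21A1 had at most 8 counts in a library and were not tested.

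Of the 3 tested transmembrane collagens, only COL13A1 was called in 6CD2m against WT cells (all genes, 11.7%) and between 6CD1m and 6CD2m (all genes, 13.1%). Between 6CD2m and 8CDm both COL13A1 and COL17A1 were called (all genes, 9.89%). COL13A1, which sits at adhesion sites and nerve-muscle junctions, was at 69.2, 81.1 and 73.6 CPM in 6CD2m, below every other library. It was at 135, 149 and 162 CPM in Tubastatin A-treated WT cells, 229, 172 and 135 CPM in 6CD1m, 156, 157 and 163 CPM in 8CDm and 172, 232 and 213 CPM in PCI-34051-treated WT cells. In 6CD2m the log2 fold change was -0.99 ± 0.16 against WT cells (adjusted p = 0.0002) and -1.09 ± 0.16 against 8CDm (adjusted p = 0.0001), and 6CD1m was higher than 6CD2m by 1.26 ± 0.16 (adjusted p = 2.5e-05). The first of these was lost with upper-quartile scaling (adjusted p = 0.0014) and without replicate 1 or 3 of 6CD2m or replicate 2 or 3 of the WT cells (adjusted p of 0.0012 to 0.0018). The second was kept in every other fit, and the third was lost when only the 6 libraries were fitted (adjusted p = 0.0014).

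COL17A1, a transmembrane collagen of hemidesmosomes, was at 6.15, 6.501 and 7.20 CPM in 8CDm and 6.99, 9.10 and 7.15 CPM in PCI-34051-treated WT cells. It was at 13.5, 12.3 and 12.8 CPM in 6CD2m, 16.5, 12.8 and 11.4 CPM in 6CD1m and 17.97, 16.7 and 14.6 CPM in Tubastatin A-treated WT cells. All Tubastatin A-treated libraries were therefore above all PCI-34051-treated ones. Between 6CD2m and 8CDm the difference was 0.96 ± 0.16 (adjusted p = 0.00028), a call lost without any 1 of the 6 libraries (adjusted p of 0.0011 to 0.0021). Between the WT groups it was 1.08 ± 0.16 and just missed the threshold (adjusted p = 0.0011), and it passed with GC offsets (adjusted p = 0.00012) and DESeq2 (adjusted p = 2.9e-08). COL25A1 was at 0.0578 to 1.41 CPM and was called in no comparison. It was at 0.854, 1.41 and 1.24 CPM in 8CDm and at 1.01 CPM or less in the other groups. COL23A1 had at most 3 counts in any library.

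No fibrillar collagen was called in any comparison. COL5A1, a chain of the collagen V that nucleates fibrils, was at 266.5, 147 and 109.9 CPM in 6CD1m, 39.6, 83.6 and 87.5 CPM in Tubastatin A-treated WT cells and 70.5, 174 and 145 CPM in PCI-34051-treated WT cells. COL27A1, a fibrillar collagen of developing cartilage, was at 223, 139 and 107 CPM, 46.5, 81.0 and 81.6 CPM, and 87.3, 189 and 163 CPM in the same groups. Replicates of these groups spread widely. In the same order, the libraries deviated from their group means along GC content, with Spearman's rho across genes of 0.49, -0.19 and -0.48 in 6CD1m, -0.40, 0.12 and 0.41 in Tubastatin A-treated WT cells and -0.44, 0.36 and 0.31 in PCI-34051-treated WT cells. COL5A1 has 60.3% G and C and COL27A1 has 61.3%. In 6CD2m (159.7, 139 and 139.6 CPM) and 8CDm (239, 244 and 233 CPM) the replicates of COL27A1 lay closer together. With GC offsets COL27A1 was called higher than in WT cells on the same inhibitor in both 6CD2m (1.07, adjusted p = 9.4e-05) and 8CDm (1.09, adjusted p = 9.9e-05), whereas without them the adjusted p was 0.0092 and 0.063. DESeq2, without GC offsets, called the first of these (1.103, adjusted p = 0.00075) and not the second (adjusted p = 0.038).

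The genes of collagen I were uneven. COL1A1 was at 1.71 to 12.4 CPM, and COL1A2, which encodes the partner chain of the same molecule, had 0, 1 and 1 counts in 6CD2m and 0, 0 and 4 counts in 8CDm. It had 12, 3 and 6 counts in 6CD1m, 8, 12 and 32 counts in Tubastatin A-treated WT cells and 11, 13 and 3 counts in PCI-34051-treated WT cells. COL1A2 did not pass the test between 6CD2m and WT cells (adjusted p = 0.0043), and no fold is given because 6CD2m was at or under 3 counts. COL5A2 and COL11A2 were at 0.387 to 3.45 CPM. COL2A1, COL3A1, COL5A3, COL11A1 and COL24A1 had at most 11 counts in a library and were not tested.

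The anchoring fibril gene COL7A1 and the multiplexins COL15A1 and COL18A1, whose proteins sit in basement membrane zones, were called in no comparison. COL7A1 was at 35.4 to 39.3 CPM in 8CDm and 10.4 to 39.5 CPM elsewhere, and its replicates spread in the same groups as those of COL5A1. COL18A1, the source of endostatin, was at 58.0 to 117 CPM. COL15A1 had 1 to 3 counts in 6CD1m and 3 to 21 counts in the other libraries (6CD1m against WT cells, adjusted p = 0.087). COL6A5, COL26A1 and COL28A1 had at most 11 counts in a library and were not tested.

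The genes that modify, export, cleave, crosslink or bind collagen were taken from a list of 45, of which 42 were tested. As for the collagen genes and for all genes tested, more of them were called where 6CD2m or 8CDm took part. Between the WT groups 0 were higher and 1 was lower (all genes, 0.328% and 0.087%). In 6CD1m against WT cells 0 were called (all genes, 0.793%). There 22 of the 42 had an unadjusted p under 0.05, beside 6226 of all 19535 genes, and DESeq2 called 2. In 6CD2m against WT cells 3 were higher and 7 lower (all genes, 4.57% and 7.16%). In 8CDm against WT cells 4 were higher and 6 lower (all genes, 4.62% and 6.16%). Between 6CD1m and 6CD2m 6 were higher and 3 lower (all genes, 6.48% and 6.6%). Between 6CD2m and 8CDm 4 were higher and 3 lower (all genes, 5.57% and 4.32%). The shares called in these last 4 comparisons were 23.8%, 23.8%, 21.4% and 16.7%, beside 11.7%, 10.8%, 13.1% and 9.89% of all genes.

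Of the enzymes that modify the chains in the endoplasmic reticulum, P3H2, a prolyl 3-hydroxylase that acts on collagen IV, was at 15.8, 23.4 and 21.9 CPM in 6CD2m and 8.60, 10.7 and 10.7 CPM in 8CDm. It was at 2.54, 2.27 and 1.91 CPM in Tubastatin A-treated WT cells, 3.41, 1.90 and 1.93 CPM in PCI-34051-treated WT cells and 1.01, 1.19 and 1.60 CPM in 6CD1m. The log2 fold change was 3.18 ± 0.24 in 6CD2m (adjusted p = 1.4e-07) and 2.03 ± 0.24 in 8CDm (adjusted p = 1.4e-05), each against WT cells, and -3.98 ± 0.27 in 6CD1m relative to 6CD2m (adjusted p = 4.1e-08). COLGALT2, which adds galactose to hydroxylysine in collagen, was at 27.1, 32.3 and 28.9 CPM in 8CDm, above all other libraries (7.93 to 16.7 CPM), and 6CD2m was lower than 8CDm by a log2 fold change of -1.77 ± 0.12 (adjusted p = 3.1e-08). SERPINH1, the collagen chaperone HSP47, was named after its values were seen. It was at 266, 295 and 262 CPM in 6CD2m, against 121, 112 and 119 CPM in Tubastatin A-treated WT cells (1.23 ± 0.10, adjusted p = 1.8e-07) and 104, 103 and 103 CPM in 6CD1m.

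Among the propeptide cleavage genes, ADAMTS2, the protease that removes the N-propeptides of fibrillar collagens, had 1 count in each 8CDm library and 218 to 251 counts in those of PCI-34051-treated WT cells (adjusted p = 3.9e-10). The ratio of the pooled levels was 0.00389, with an exact 95% binomial interval of 0.0008 to 0.0114 that covers counting error only. It was at 4.14, 2.89 and 2.84 CPM in 6CD2m and 8.02 to 16.2 CPM in the other 3 groups. PCOLCE, which enhances removal of the C-propeptides, was at 0.414, 0.811 and 0.890 CPM in 6CD2m, against 5.75, 5.64 and 6.01 CPM in Tubastatin A-treated WT cells (-3.02 ± 0.32, adjusted p = 3.5e-06) and 6.06, 6.598 and 4.39 CPM in 6CD1m. In 8CDm it was at 1.40 to 2.51 CPM and in PCI-34051-treated WT cells at 1.33 to 2.32 CPM.

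Of the collagen receptors, the integrin α chain gene ITGA10 was at 29.8, 29.7 and 26.5 CPM in 6CD2m, below every other library (74.9 to 152 CPM). Its log2 fold change was -2.09 ± 0.12 against Tubastatin A-treated WT cells (adjusted p = 9.6e-09). ITGA11, the α chain of another collagen-binding integrin, was at 171, 158 and 160.4 CPM in PCI-34051-treated WT cells and 18.1, 16.6 and 16.5 CPM in 8CDm, a log2 fold change of -3.25 ± 0.10 (adjusted p = 9.9e-12). At 57.1, 68.3 and 71.5 CPM it was also lower in Tubastatin A-treated than in PCI-34051-treated WT cells (-1.31 ± 0.10, adjusted p = 2.9e-06), the 1 gene of the list called there.

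The differences from treated WT cells were compared between 6CD2m and 8CDm with an interaction term, that is, the log2 fold change of 6CD2m minus that of 8CDm. These comparisons share no libraries. Across 13946 protein-coding genes the term followed GC content with a Spearman's rho of 0.346. The term was called for 4 of 28 collagen genes (14.3%), all positive, against 5.12% of all genes and 2.5% positive. The genes were COL6A1, COL6A2, COL10A1 and COL4A6. For COL22A1 the term was -0.18 ± 0.46 (adjusted p = 0.83), and for COL8A1 it was -1.84 ± 0.34 and just missed the threshold (adjusted p = 0.0012).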

How the data were processed

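Total RNA was depleted of rRNA and sequenced as paired reads. The values the authors deposited are RSEM expected counts per gene, which are estimated and not normalized. The submitters' processing notes name Trimmomatic 0.39, Bowtie2 2.4.5, RSEM 1.3.3, DESeq2 1.38.2 and GRCh38, and the annotation and strand setting are not given in the sources used here. Values were rounded before testing, since 21.8% of those above 0 had a fractional part.

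Groups and replicate numbers come from the sample labels. The study calls the replicates biological. The main test was that of edgeR 4.0.16 under R 4.3.3 (TMM, low-count filter, quasi-likelihood test in 1 fit of all 15 libraries, Benjamini-Hochberg adjustment over 19535 genes), with limma 3.58.1. Errors are SE. Positions, exon lengths and GC content are from GENCODE 29 (GRCh38), which matched 57055 of 60675 genes, and promoter sequences are from RefSeq. The test was checked on simulated data. The biological coefficient of variation was 16.4%, and a floor of 3 counts covers counting error only.

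The collagen rule, classes and gene lists were chosen with earlier results of these data known. Values in every library are given for up to 5 called genes per comparison (largest log2 fold change, average log2 CPM of at least 1, no overlap between groups), the 5 genes highest per kb, their partner chains and up to 3 called genes of the other list per comparison. COL12A1, COL16A1, COL25A1, COL5A1, COL27A1, COL1A2, SERPINH1 and FN1 were added after their values were seen.

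Same-numbered libraries of the WT groups deviated together (r = 0.505, 0.235 and 0.169 across genes). The labels give replicate numbers and state no pairing. These libraries also deviated in the same direction along GC content, with replicate 1 at -0.397 on Tubastatin A and -0.442 on PCI-34051 (Spearman's rho). Whether the numbers mark a pairing is not known. With the replicate block 0 collagen genes were called between the WT groups, as without it. In the other comparisons at least 1 pair was at 0.1 or less. Alternatives were DESeq2 1.42.0, other scalings and count filters, GC offsets, the replicate block, fits of only the groups compared, other thresholds and leaving out each library.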

Additional observations from a re-analysis of the deposited data

Results flagged for a closer look

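For 4 collagen genes the difference from WT cells on the same inhibitor was not the same in 6CD2m as in 8CDm, by the interaction term of the edgeR fit. The term for COL6A1 was 1.505 on the log2 scale (SE 0.156, adjusted p = 7.3e-06), with a rise of 0.63 in 6CD2m and a fall of 0.87 in 8CDm. Between Tubastatin A-treated and PCI-34051-treated WT cells, the references of these differences, COL6A1 had a log2 fold change of -0.63 ± 0.11 that did not pass the test (adjusted p = 0.0037, and -0.34 with an adjusted p of 0.1 with GC offsets). For COL6A2 the term was 0.893 (SE 0.143, adjusted p = 0.00041), and with GC offsets it was 0.453 (adjusted p = 0.16). The value for COL10A1 was 1.986 (SE 0.296, adjusted p = 0.00021), from -0.41 in 6CD2m, which did not pass the test, and -2.40 in 8CDm. COL4A6 had a term of 2.868 (SE 0.511, adjusted p = 0.00093), from 2.14 in 6CD2m and -0.73 in 8CDm, of which the latter did not pass the test (adjusted p = 0.14). With 1 of the 12 libraries left out in turn, the COL6A1 term was called in 12 of 12 fits, COL10A1 in 11 (lost without replicate 3 of 8CDm, adjusted p = 0.0011), COL6A2 in 3 and COL4A6 in 1. In each contrast line and treatment time change together. The causes of these differences were not tested.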

How the results depend on the processing

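Of 28 collagen calls, 13 were kept in every other fit, 15 were lost in some and 0 changed direction, and 14 were kept with each library left out. Counts below are of calls, in the order WT cells on Tubastatin A against PCI-34051, 6CD1m, 6CD2m and 8CDm each against WT cells, 6CD1m against 6CD2m, 6CD2m against 8CDm, and the interaction, where the reported counts were 0, 0, 5, 5, 6, 8 and 4 for the collagen genes. Shares of all genes called under the alternatives are not given, so these counts are not read as a trait of collagen genes. DESeq2 called 3, 1, 9 and 8 in the first 4 of these and 7 in the interaction. At an adjusted p below 0.05 there were 7, 4, 12, 11 and 13 in the first 5 and 8 in the interaction, and with a log2 fold change of at least 1 there were 3 in 6CD2m against WT cells, 3 in 6CD1m against 6CD2m and 3 in 6CD2m against 8CDm. Between the WT groups 2 were called with no filter and 1 with GC offsets. A fit of only the groups compared called 1 in 6CD1m against 6CD2m and 14 in 6CD2m against 8CDm. Leaving out 1 library gave 0 to 1, 0 to 0, 2 to 4, 4 to 7, 2 to 5, 5 to 6 and 2 to 5 calls. The replicate block gave 3 calls in 6CD1m against 6CD2m and 2 in the interaction, and the block with GC offsets gave 1 between the WT groups and 2 in the interaction. The mean r of same-numbered libraries was highest between the WT groups (0.303), and the labels state no pairing. In the other comparisons the mean r of same-numbered libraries was between -0.255 and 0.091, so a call lost under the block there is not read as a weaker effect.

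For the processing and receptor genes the reported counts were 1, 0, 10, 10, 9 and 7. DESeq2 called 5 between the WT groups, 2 in 6CD1m against WT cells, 16 in 6CD1m against 6CD2m and 12 in 6CD2m against 8CDm. At an adjusted p below 0.05 there were 8, 8, 23, 18, 23 and 21, and with a log2 fold change of at least 1 there were 6 in 6CD2m and 4 in 8CDm against WT cells and 4 in 6CD2m against 8CDm. Between the WT groups 2 were called with no filter, 2 with GC offsets and 0 in a fit of only those groups. Such fits called 5 in 8CDm against WT cells, 4 in 6CD1m against 6CD2m and 18 in 6CD2m against 8CDm. Leaving out 1 library gave 1 to 1, 0 to 0, 8 to 9, 7 to 12, 5 to 8 and 5 to 6 calls. Here too the shares of all genes under the alternatives are not given, and the counts are not read as a trait of the list. The cause of these changes was not tested. The 16 untested collagen genes had at most 11 counts in a library and were left out by the filter on low counts.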

Other observations

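Several collagen genes that could not be tested had counts spread unevenly over the groups. COL5A3 had 8, 9 and 8 counts in 8CDm and 0 to 4 counts in all other libraries. COL24A1 had 6, 11 and 3 counts in PCI-34051-treated WT cells and 0 to 2 counts elsewhere. COL6A5 had 10, 10 and 11 counts in 6CD2m, 5, 7 and 6 counts in 8CDm, 5, 0 and 8 counts in 6CD1m and 0 to 3 counts in WT libraries. COL28A1 had 3, 10 and 4 counts in 6CD2m and 0 counts in each 8CDm library, which allows up to 3 counts in each. COL3A1 had 3, 0 and 1 counts in 6CD1m and 0 counts in all other libraries. These genes were picked out after their counts were seen and have no test.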
